A study of Homo sapiens with 29 samples.

Results

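The genes described here are the cellular sensors of double-stranded RNA and the oligoadenylate synthetase (OAS) family. They are the RIG-I-like receptors RIGI (older symbol DDX58), IFIH1 and DHX58, the endosomal receptor TLR3, the protein kinase EIF2AK2, and OAS1, OAS2, OAS3 and OASL. Probes were assigned to them through the RefSeq accession of each probe, which gave 14 of the 58201 probes on the array and 9 of 22439 named genes. All 9 genes had a probe that was tested, out of 18432 genes with a tested probe.

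Double-stranded RNA inside a cell is a common sign of viral replication. RIG-I (encoded by RIGI) and MDA5 (IFIH1) bind it in the cytosol and signal through the mitochondrial adaptor MAVS, TLR3 binds it in endosomes and signals through TICAM1, and both routes lead to transcription of type I interferon. EIF2AK2 (also called PKR) responds to the same ligand by phosphorylating the translation factor eIF2α, and the OAS enzymes by making 2′-5′ linked oligoadenylates. Secreted interferon acts back through its receptors, and it is known to raise transcription of these sensors in most cell types, skeletal muscle included.

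LHCN-M2 is a human skeletal myoblast line that was derived from a selected clone and immortalized with telomerase and CDK4. All cultures received siRNA at 20 nM, either nontargeting siRNA (siControl) or ZNF148 siRNA (siZNF148), so the controls also carried a synthetic RNA duplex, and there was no untransfected group. ZNF148 codes for a zinc finger transcription factor. Cells were taken subconfluent at 24 h or confluent at 48 h or 96 h in growth media, and at 48 h or 96 h in differentiation media. The hours in growth media count from transfection, whereas the change to differentiation media came 2 days after it according to the methods, so equal hours in both media need not be equal times after transfection. Each of the 10 groups had 3 arrays, except nontargeting siRNA at 96 h in growth media with 2, and 29 one-colour Agilent arrays were used in all. The labels call them biological replicates, and p-values measure the spread between these arrays.

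ZNF148 itself was lower with ZNF148 siRNA in all 5 comparisons, with log2 changes of -1.53, -2.07 and -2.31 at 24 h, 48 h and 96 h in growth media and of -2.34 and -2.74 at 48 h and 96 h in differentiation media. The myoblast markers MYOD1, MYF5, DES, CDH15 and NCAM1 were well above background on 29 of 29 arrays. Replicate 1 of nontargeting siRNA at 48 h in growth media stood apart. The summed signal of its muscle differentiation markers reached 18.56 on the log2 scale, against 9.68 on the lowest array of the same group. Counts at 48 h in growth media are therefore also given without it, with the values of the genes it moved most. Between 41.6% and 56.5% of probes were well above background on an array. RNA from bulk cultures was measured, so fewer cells of a type and less RNA per cell cannot be told apart.

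Sequences of the promoters are shown because all 9 genes rose at 96 h in growth media (below) and because interferon is known to act on such genes through short promoter elements. RefSeq (GRCh38.p14) gave the region from 250 bases before to 50 after the start for 6 of the 9 genes. Both strands were searched for GAAA repeated after a gap of 2 bases of any kind, the core of the interferon-stimulated response element, and for TTCNNNGAA, the core of the gamma-activated sequence. Of the 6 genes, 4 held the former, which was present in 3.57% of all 35116 promoters, and 2 held the latter, present in 7.66%. The 5 promoters with a match are printed from 180 bases before to 20 after the start, 5′ to 3′ on the strand of the gene, with matches to either motif in capitals.
EIF2AK2 (chr2:37156961-37157160, minus strand): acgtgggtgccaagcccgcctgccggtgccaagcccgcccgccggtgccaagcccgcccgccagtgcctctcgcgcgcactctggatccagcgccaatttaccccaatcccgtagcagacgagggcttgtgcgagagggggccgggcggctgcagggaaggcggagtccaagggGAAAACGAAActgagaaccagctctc
IFIH1 (chr2:162318665-162318864, minus strand): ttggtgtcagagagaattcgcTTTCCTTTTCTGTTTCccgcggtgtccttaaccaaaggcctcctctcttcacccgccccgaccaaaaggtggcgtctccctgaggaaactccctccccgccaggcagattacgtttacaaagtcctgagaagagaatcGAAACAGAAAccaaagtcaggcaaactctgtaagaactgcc
TLR3 (chr4:186068976-186069175, plus strand): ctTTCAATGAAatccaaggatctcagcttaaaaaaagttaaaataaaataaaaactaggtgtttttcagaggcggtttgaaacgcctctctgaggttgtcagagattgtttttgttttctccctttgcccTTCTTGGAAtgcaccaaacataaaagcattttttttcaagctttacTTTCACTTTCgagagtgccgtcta
OAS3 (chr12:112938294-112938493, plus strand): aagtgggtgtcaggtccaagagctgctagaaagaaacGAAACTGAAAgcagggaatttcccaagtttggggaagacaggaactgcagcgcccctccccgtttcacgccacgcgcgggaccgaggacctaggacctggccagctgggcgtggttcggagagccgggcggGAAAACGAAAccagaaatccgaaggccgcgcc
OAS1 (chr12:112906782-112906981, plus strand): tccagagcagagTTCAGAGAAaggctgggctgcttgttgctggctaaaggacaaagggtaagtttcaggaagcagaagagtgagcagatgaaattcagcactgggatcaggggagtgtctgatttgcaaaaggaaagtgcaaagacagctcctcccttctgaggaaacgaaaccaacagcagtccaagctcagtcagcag
The match in EIF2AK2 started 6 bases before the start of transcription. In IFIH1 there was a match on the strand of the gene 21 bases before the start and a pair on the opposite strand, at 159 and 153 bases, which overlapped each other. OAS3 had matches at 143 and 12 bases, and TLR3 a match on the opposite strand at 4 bases. The gamma-activated core was found at 178 and 50 bases in TLR3 and at 168 bases in OAS1. Repeats of GAAA with another gap, such as the gaaacgaaa printed in lower case for OAS1, were not counted. RIGI held neither motif in this window. OAS2, OASL and DHX58 were not analysed here.

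Log2 values are background-subtracted signals, quantile-normalized over all arrays, and a difference of 1 is 2-fold. Effects were tested with limma over all probes. Calls needed more than a 2-fold difference together with an adjusted p (Benjamini-Hochberg) below 0.05. Of the 9 genes, 3 were lower and none higher with ZNF148 siRNA at 24 h in growth media, where 3.08% of all genes tested were called lower and 2.46% higher. At an unadjusted p under 0.05, limma gave 1 higher and 6 lower at this time, and the methods' own test gave none higher past its 2-fold threshold. The share of all genes at an unadjusted p was not counted, here or below. At 48 h in growth media 1 of 9 was lower (12.2% of all genes) and none higher (11.7% of all genes), with 4 in each direction at an unadjusted p under 0.05 in limma and none higher past 2-fold by the methods' own test. Without the control array that stood apart 2 of 9 were lower at that time, TLR3 (-1.69) and OAS2 (-1.04), and none higher. The other changes without it were 0.35 for RIGI, 0.29 for IFIH1, -0.98 for DHX58, -0.47 for EIF2AK2, 0.76 for OAS1, -0.33 for OAS3 and 0.60 for OASL. By 96 h in growth media 9 of 9 were higher, against 12.3% of all genes, where 12.4% were lower. In differentiation media 1 was higher (15.1% of all genes) and 2 lower (17.3%) at 48 h. By 96 h 7 had a higher level there (10.5%) and none a lower one (12.8%), where limma gave 1 lower at an unadjusted p under 0.05 and the methods' own test none past 2-fold. The median log2 change of the 9 genes went from -0.56 at 24 h through -0.25 at 48 h to 3.12 at 96 h in growth media, and was -0.35 at 48 h and 2.72 at 96 h in differentiation media. The median over all tested genes lay between -0.06 and 0.00 in these comparisons. Groups without overlap were common. At 96 h in growth media every ZNF148 siRNA array was higher for 35.6% of all genes and lower for 39.5%. The shares were 28.5% and 37% at 96 h in differentiation media and 27.8% and 27.7% at 24 h. At 48 h they were 29.3% and 33.4% in growth media and 33% and 37.1% in differentiation media.

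**Figure D1:**
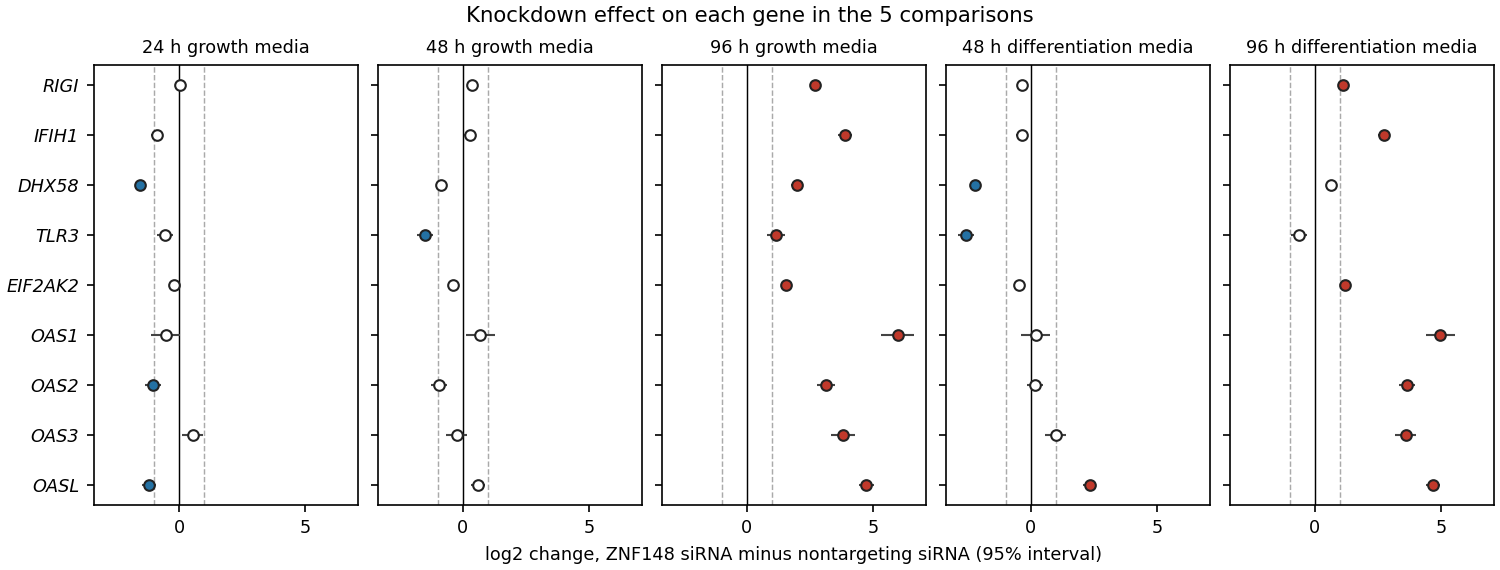
Log2 change (x axis, ZNF148 siRNA minus nontargeting siRNA) of each gene in each of the 5 comparisons, with its 95% interval from the limma fit. Red points were called higher, blue points lower and white points neither, and dashed lines mark 2-fold. All 9 points are red at 96 h in growth media and 7 at 96 h in differentiation media, whereas 3 were blue at 24 h.

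RIGI, the sensor of short and 5′-triphosphate RNA, did not move early and was higher at 96 h. With ZNF148 siRNA at 96 h in growth media its log2 signal was 11.91, 11.66 and 11.66, against 9.04 and 9.02 with nontargeting siRNA. The groups lay far apart. The log2 change was 2.71 ± 0.109 (SE; limma, adjusted p = 3.71e-14), or 6.55-fold. In differentiation media at 96 h the values were 10.92, 10.72 and 10.75 against 9.71, 9.62 and 9.69, again without overlap, and the change was smaller at 1.12 ± 0.0973 (adjusted p = 3.58e-09). At 24 h the values were 8.62, 8.59 and 8.59 against 8.57, 8.57 and 8.58, a change of 0.03 with a 95% interval from -0.18 to 0.23. At 48 h RIGI differed by under 2-fold, with changes of 0.37 in growth media (adjusted p = 0.00342) and -0.35 in differentiation media (adjusted p = 0.00451).

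IFIH1, which codes for MDA5, the sensor of long duplexes, showed the largest rise among the RIG-I-like receptors. The 3 arrays with ZNF148 siRNA at 96 h in growth media read 13.39, 13.34 and 13.17, and the 2 controls 9.38 and 9.43. The log2 change was 3.89 ± 0.13 (SE; limma, adjusted p = 2.93e-15), or 14.8-fold. In differentiation media at 96 h it was 12.26, 12.17 and 12.20 against 9.44, 9.58 and 9.44, a change of 2.72 (adjusted p = 6.45e-14). The groups did not overlap in either medium. At 24 h IFIH1 stood in the opposite order. Its values were 7.16, 7.32 and 7.17 with ZNF148 siRNA and 7.98, 8.11 and 8.17 with nontargeting siRNA, a change of -0.87 (adjusted p = 7.82e-06) that stayed under 2-fold. At 48 h the changes were 0.29 (adjusted p = 0.0456) in growth media and -0.36 (adjusted p = 0.0112) in differentiation media, and in the latter the groups overlapped.

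DHX58 codes for LGP2, a receptor of the same family that lacks the signalling domains and modulates the other two. It fell first and was higher only at 96 h among the times measured. At 24 h the log2 signal was 8.32, 8.28 and 8.42 with ZNF148 siRNA against 9.84, 10.02 and 9.80 with nontargeting siRNA. Every ZNF148 siRNA array was below every control array, and the change was -1.54 ± 0.104 (SE; limma, adjusted p = 6.96e-10). The change was -0.87 at 48 h in growth media (adjusted p = 4.18e-07). At 48 h in differentiation media the values were 8.73, 8.97 and 8.85 against 10.95, 11.14 and 11.07, and the fall was deeper there, at -2.20 (adjusted p = 1.04e-13). After 96 h in growth media the arrays read 12.26, 12.37 and 12.06 against 10.24 and 10.27, a change of 1.98 (adjusted p = 1.3e-11), so the order of the groups was the reverse of that at 24 h. The difference at 96 h in differentiation media was 0.64 (adjusted p = 2.14e-05), which did not pass 2-fold.

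TLR3, the endosomal receptor, was the member with the largest fall. At 24 h it averaged 8.08 with ZNF148 siRNA and 8.63 with nontargeting siRNA, a change of -0.56 that stayed under 2-fold. At 48 h in growth media its log2 signal was 6.92, 6.95 and 6.71 with ZNF148 siRNA and 8.01, 8.49 and 8.62 with nontargeting siRNA. The lowest control, 8.01, was the array that stood apart. The change was -1.51 ± 0.153 (SE; limma, adjusted p = 4.33e-08) and became -1.69 without that array. At 48 h in differentiation media the values were 5.77, 6.24 and 6.15 against 8.89, 8.59 and 8.44, a fall of 2.58 on the log2 scale, or 6.00-fold (adjusted p = 4.07e-12). The order was reversed at 96 h in growth media, with 10.07, 9.99 and 9.86 against 8.78 and 8.84. That rise of 1.16 (adjusted p = 7.93e-06) was the smallest of the 9 and was the one that fell under 2-fold (0.93) with normexp background correction. TLR3 at 96 h in differentiation media read 8.59, 8.07 and 8.20 against 8.87, 9.03 and 8.88. It was still the lower group there, by 0.64 (adjusted p = 0.00138), which is under 2-fold.

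EIF2AK2, the kinase that halts translation on binding double-stranded RNA, changed least over the groups. With ZNF148 siRNA its group means spanned 2.23 on the log2 scale, against 7.36 for OAS1. With ZNF148 siRNA at 96 h in growth media it read 13.81, 13.83 and 13.63 against 12.11 and 12.32, a change of 1.55 ± 0.0971 (SE; limma, adjusted p = 3.66e-11). In differentiation media at 96 h it read 13.33, 13.26 and 13.22 against 12.04, 12.18 and 12.03, a change of 1.19 (adjusted p = 2.54e-10). The groups did not overlap at 96 h in either medium. Before that the differences were small and negative, at -0.20 at 24 h (adjusted p = 0.109), -0.40 at 48 h in growth media (adjusted p = 0.000607) and -0.48 at 48 h in differentiation media (adjusted p = 5.74e-05).

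**Figure D2:**
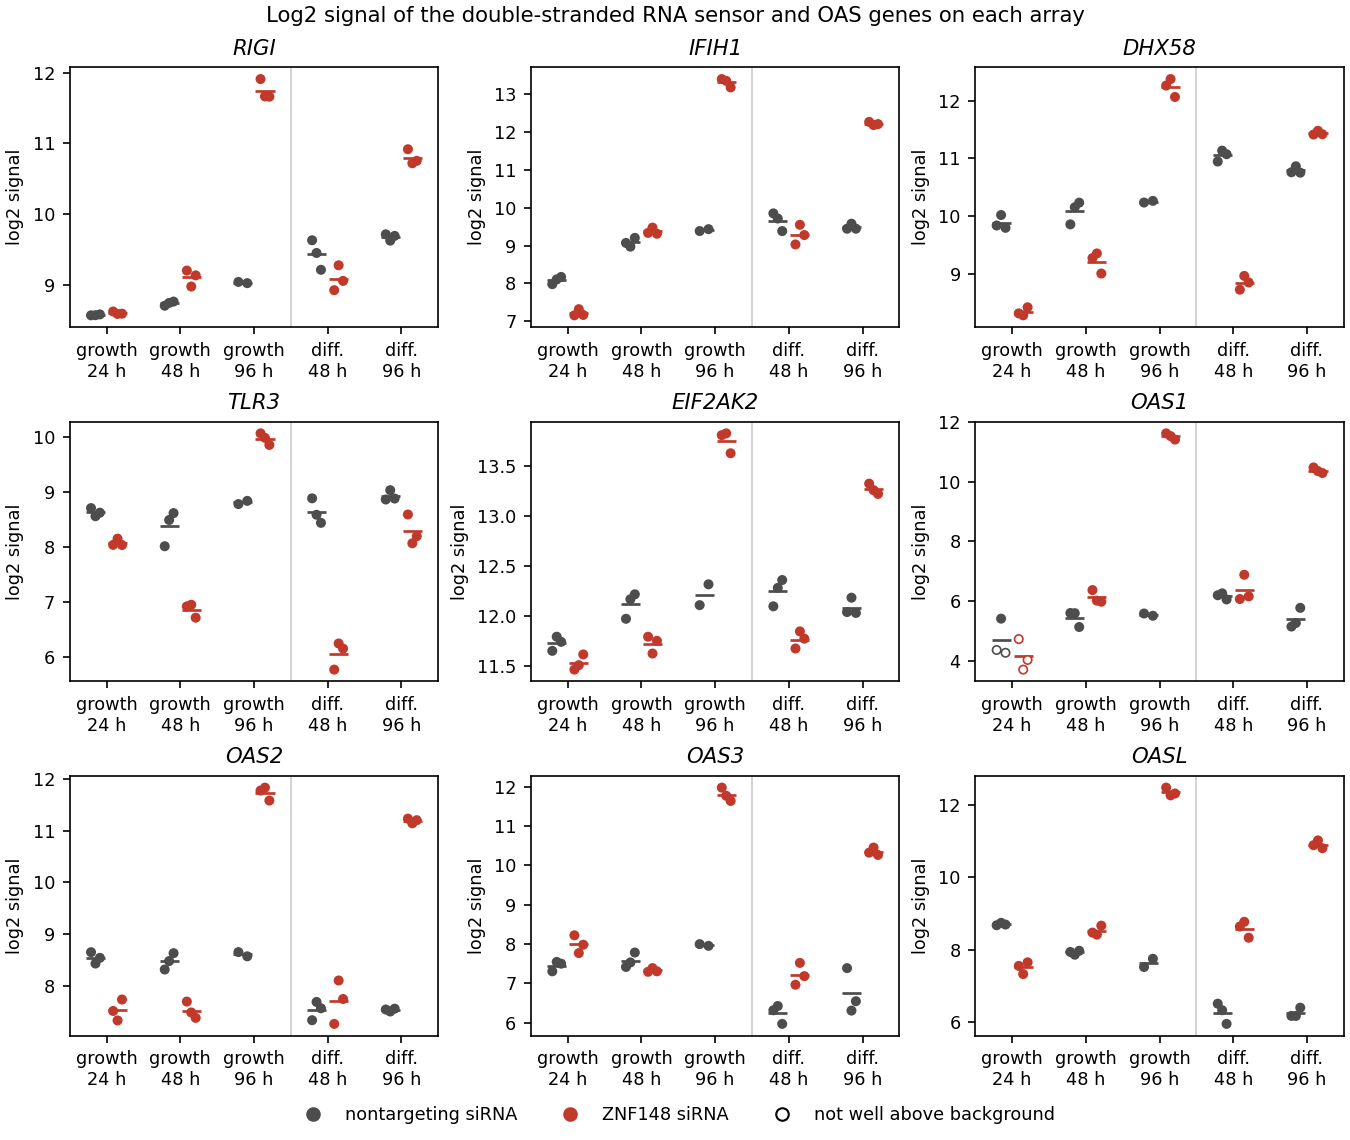
Log2 signal (y axis) of the 9 genes on each of the 29 arrays, by medium and hours (x axis; diff., differentiation media). Grey points are nontargeting siRNA arrays, red points ZNF148 siRNA arrays, short lines group means and hollow points values not well above background. Red points at 96 h in growth media are the highest of each panel.

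OAS1, an oligoadenylate synthetase, had the largest rise of the 9 genes. Its log2 signal at 96 h in growth media was 11.61, 11.52 and 11.41 with ZNF148 siRNA and 5.58 and 5.51 with nontargeting siRNA. The change was 5.97 ± 0.308 (SE; limma, adjusted p = 1.66e-12), or 62.5-fold. With normexp background correction it was 4.61, and the controls were dim. In differentiation media at 96 h it read 10.47, 10.35 and 10.29 against 5.15, 5.27 and 5.77, a change of 4.97 (adjusted p = 3.38e-12) that was 3.64 with normexp. No ZNF148 siRNA array came near a control array at 96 h. At 24 h OAS1 was well above background on 0 of 3 ZNF148 siRNA arrays and on 1 of 3 control arrays, so no fold is given. At 48 h the differences were 0.68 in growth media (adjusted p = 0.0503) and 0.20 in differentiation media (adjusted p = 0.607, 95% interval -0.37 to 0.77).

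OAS2 and OAS3 are the larger synthetases of the family. OAS2 at 96 h in growth media read 11.78, 11.84 and 11.59 against 8.65 and 8.57, and the log2 change was 3.12 (limma, adjusted p = 4.29e-12). OAS3 read 11.98, 11.77 and 11.64 against 8.00 and 7.96, a change of 3.82 (adjusted p = 1.43e-11). Both genes stood without overlap there. In differentiation media at 96 h OAS2 read 11.24, 11.15 and 11.21 against 7.54, 7.50 and 7.56 (change 3.66, adjusted p = 4.99e-14). OAS3 read 10.32, 10.45 and 10.26 against 7.39, 6.31 and 6.55 (change 3.60, adjusted p = 4.06e-12). The first OAS3 control array was the highest of its group, but the ZNF148 siRNA arrays were well above it. At 24 h OAS3 averaged 7.99 with ZNF148 siRNA and 7.45 with nontargeting siRNA, a difference of 0.54 that was not called. At 48 h in growth media it averaged 7.33 against 7.58.

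The early values of OAS2 depended on the probe. On its leading probe OAS2 read 7.51, 7.33 and 7.74 at 24 h against 8.65, 8.43 and 8.54, a change of -1.01 (limma, adjusted p = 3.34e-05) that lost its call with normexp background correction (-0.74), as a mean over its probes (-0.33) and without nontargeting siRNA replicate 1 (-0.96) or ZNF148 siRNA replicate 2 (-0.92). Its other 2 probes gave 0.07 and -0.06 at 24 h and 0.19 and 0.52 at 48 h in growth media, where the leading probe gave -0.96. Without the control array that stood apart, the leading probe gave -1.04 at 48 h and passed 2-fold. At 96 h the other 2 probes rose by 4.79 and 4.67 in growth media and by 3.85 and 3.54 in differentiation media, so the rise was seen with all 3 probes. The probes name different transcripts of the gene.

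OAS3 at 48 h in differentiation media lay at the threshold on its leading probe. Its values were 6.97, 7.52 and 7.19 against 6.32, 6.43 and 5.97, and the groups did not overlap. The change of 0.99 (limma, adjusted p = 0.000241) was just under 2-fold, and was 1.01 to 1.11 in 4 of the 6 fits that left out an array of this comparison. Over all alternatives it lay between 0.24 and 1.11. The second OAS3 probe, well above background on 0 ZNF148 siRNA arrays and 1 control array there, gave -0.51 (limma, adjusted p = 0.471).

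OASL is related in sequence to the synthetases but makes no oligoadenylate, and it is known to enhance RIG-I signalling. At 24 h it was lower, with 7.55, 7.32 and 7.65 against 8.67, 8.74 and 8.69 (log2 change -1.20, limma, adjusted p = 5.43e-07), a change that stood at 2-fold and was not called with normexp background correction. At 48 h in differentiation media it was the one gene of the 9 called higher, with 8.64, 8.77 and 8.33 against 6.50, 6.32 and 5.94. No arrays overlapped at either time, and the change at 48 h was 2.32 ± 0.13 (SE, adjusted p = 1.53e-12), or 5.01-fold. In growth media at 48 h the values were 8.47, 8.41 and 8.66 against 7.93, 7.86 and 7.97, a change of 0.60 (adjusted p = 0.000578). At 96 h OASL read 12.49, 12.27 and 12.32 against 7.52 and 7.75 in growth media, a change of 4.73 or 26.5-fold (adjusted p = 9.05e-16). In differentiation media it read 10.89, 11.02 and 10.81 against 6.16, 6.16 and 6.39, a change of 4.67 (adjusted p = 1.79e-16). The sizes in both media were close, although each level was lower in differentiation media.

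Arrays of the later times lay on 3 slides, and those at 24 h on 1 slide of their own. Within slides the direction at 96 h was as in the pooled fit for all 9 genes. Their groups did not overlap at 96 h, which held for many genes (shares above). The direction could therefore not differ within a slide and is no further support. On the 1 slide that held both groups at 96 h in growth media (2 control arrays, 1 ZNF148 siRNA array) the differences were between 1.18 for TLR3 and 5.98 for OAS1. On the 2 such slides at 96 h in differentiation media, TLR3 differed by -0.81 and -0.75, DHX58 by 0.61 and 0.73, and IFIH1 by 2.69 and 2.73. At 48 h the groups named next did not overlap either, so only the sizes are of use. Over 3 slides the fall of TLR3 lay between -1.78 and -1.06 in growth media and between -2.67 and -2.44 in differentiation media. That of DHX58 in differentiation media lay between -2.34 and -1.98, and the rise of OASL between 2.01 and 2.70.

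Time was compared next, within each siRNA and medium. With ZNF148 siRNA, 9 of 9 genes were higher at 96 h than at 48 h in growth media (4.12% of all genes, with 1.82% lower) and 9 of 9 in differentiation media (4.32%, with 3.71% lower). With nontargeting siRNA none was called in growth media (0.401% of all genes higher, 0.038% lower) or in differentiation media (5.75% higher, 4.21% lower). At an unadjusted p under 0.05, limma gave 3 higher and 0 lower of the controls' genes in growth media, and 2 higher and 2 lower in differentiation media. The log2 rises with ZNF148 siRNA were between 2.04 (EIF2AK2) and 5.39 (OAS1) in growth media and between 1.51 (EIF2AK2) and 4.00 (OAS1) in differentiation media. In the controls the same differences lay between -0.29 and 0.44 in growth media and between -0.77 and 0.51 in differentiation media. The TLR3 signal with ZNF148 siRNA thus went from 6.86 on average at 48 h to 9.97 at 96 h in growth media, while that of the controls was 8.37 and 8.81.

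In control cells OAS3 and OASL were lower in differentiation than in growth media at both times. Of these differences only that of OASL at 48 h kept its call with normexp background correction. With nontargeting siRNA, 2 of 9 genes were lower in differentiation than in growth media at 48 h (8.21% of all genes, with 7.75% higher), namely OAS3 by -1.34 (limma, adjusted p = 1.14e-05) and OASL by -1.67 (adjusted p = 8.6e-10). At 96 h 3 of 9 were lower (8.24% of all genes, with 6.79% higher), namely OAS2 by -1.08, OAS3 by -1.23 and OASL by -1.39. The call of OAS2 rested on its leading probe, since its other 2 probes gave -0.40 (adjusted p = 0.323) and -0.33 (adjusted p = 0.299). It was also lost with normexp background correction (-0.82) and with the slide as a block (-0.88). Normexp also removed the calls of OAS3 at 48 h (-0.91) and 96 h (-0.80) and of OASL at 96 h (-0.95). That of OAS3 at 48 h was lost with its probes averaged too (-0.90). The second, dim OAS3 probe gave -0.45 at 48 h (limma, adjusted p = 0.585) and -1.29 at 96 h (adjusted p = 0.105). No other gene passed 2-fold between media in the controls. For DHX58 the difference was 0.97 at the earlier time (adjusted p = 1.1e-07) and 0.54 at the later (adjusted p = 0.000838). For RIGI it was 0.69 (adjusted p = 4.55e-06) and 0.64 (adjusted p = 6.66e-05). OAS1 was 0.73 higher in differentiation media at 48 h (adjusted p = 0.0412) and differed by -0.15 at 96 h. The 48 h difference of OAS2 was -0.95 on its leading probe, and -1.03 without the control array that stood apart, whereas its other 2 probes gave 0.18 and 0.42. With ZNF148 siRNA none was called between media at 48 h (1.13% of all genes higher, 2.84% lower). There limma gave 0 higher and 2 lower at an unadjusted p under 0.05. At 96 h 5 of 9 were lower in differentiation media (4.94% of all genes, with 1.44% higher), with log2 differences of -1.09 for IFIH1, -1.69 for TLR3, -1.14 for OAS1, -1.45 for OAS3 and -1.45 for OASL. The differences of the other 4 were -0.95 for RIGI, -0.80 for DHX58, -0.49 for EIF2AK2 and -0.54 for the leading probe of OAS2. The other 2 probes of OAS2 were both called lower in this contrast, by -1.34 (adjusted p = 0.000518) and -1.46 (adjusted p = 1.44e-05).

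Whether the knockdown effect itself differed between times and media was tested as a difference of log2 changes. The effect at 96 h was above that at 24 h for 9 of 9 genes (11.6% of all genes, with 11.3% lower) and above that at 48 h for 9 of 9 (3.11% of all genes, with 1.89% lower) in growth media. For IFIH1, OAS1 and OASL, 3 of 9 genes, the effect at 48 h was also above that at 24 h (10.2% of all genes, with 10.4% lower). With normexp the difference was 0.92 for IFIH1 and 0.40 for OAS1, neither called. The call of OAS1 was also lost without some single arrays, as with 0.84 without nontargeting siRNA replicate 2 at 24 h. Comparisons of effects at 24 h with later ones span slides. Effects in differentiation media were below those in growth media for 4 of 9 genes at 96 h (6.92% of all genes, with 5.54% higher), which were the receptors RIGI (-1.59), IFIH1 (-1.17), DHX58 (-1.34) and TLR3 (-1.80). EIF2AK2 (-0.36), OAS1 (-0.99), OAS3 (-0.22), OASL (-0.06) and the leading probe of OAS2 (0.54) were not called in this contrast. The other 2 probes of OAS2 gave -0.94 and -1.13, the latter called lower (limma, adjusted p = 0.00872), so the direction for OAS2 depended on the probe and OAS1 lay just under 2-fold. At 48 h the effect was higher in differentiation media for OAS2, OAS3 and OASL (3 of 9, 8.11% of all genes) and lower for DHX58 and TLR3 (2 of 9, 9.05%). For OAS2 this difference of 1.13 was -0.0822 when its probes were averaged, and the other 2 probes gave -0.81 and -0.57. With normexp the differences of OAS2 (0.90), OAS3 (0.81) and TLR3 (-0.72) were not called. That of OAS3 was also not called with its probes averaged (0.93), and its second probe gave 0.63 (limma, adjusted p = 0.604). Without the control array that stood apart, the difference of TLR3 was -0.89 in place of -1.07 and no longer passed 2-fold. The effect of TLR3 at 48 h came to lie below that at 24 h by more than 2-fold (-1.14) without that array.

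Second probes of RIGI and EIF2AK2 followed the leading ones, with correlations of 0.991 and 0.982 over 29 arrays. The RIGI probe rose at 96 h in growth media by 2.98, and the EIF2AK2 probe by 1.68. The second OAS3 probe was well above background on 8 of 29 arrays, and it gave 3.46 in growth media and 2.56 in differentiation media at 96 h.

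The genes that act around the sensors were read against the shares of all genes called higher and lower in each comparison (above), which were 12.3% and 12.4% at 96 h in growth media. Of 22 adaptors, kinases and transcription factors that act below the sensors, 2 were called higher and 1 lower at 96 h in growth media, with a median log2 change of -0.38. At 24 h the counts were 0 and 2 (4 and 7 at an unadjusted p under 0.05 in limma), at 48 h in growth media 2 and 2 (2 and 3 without the control array that stood apart), at 48 h in differentiation media 1 and 3, and at 96 h there 2 and 1. IRF7, the transcription factor that amplifies interferon production, read 15.62, 15.59 and 15.52 at 96 h in growth media against 10.46 and 10.57, a change of 5.06 (limma, adjusted p = 1.48e-14). It was higher by 1.74 at 48 h in growth media, where the control array that stood apart read 11.29 and the other two 10.27 and 10.27, and by 2.09 without that array. In differentiation media it changed by 0.27 at 48 h and 3.36 at 96 h. TRAF6, a ubiquitin ligase of the TLR pathway, was higher by 1.37 at 96 h in growth media and by 1.99 at 48 h in differentiation media. RIPK1, a kinase bound by TICAM1, was lower by 1.06 to 1.59 at 48 h and 96 h in both media, and TRADD, an adaptor of the same complex, by 1.68 at 48 h in differentiation media.

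**Figure D3:**
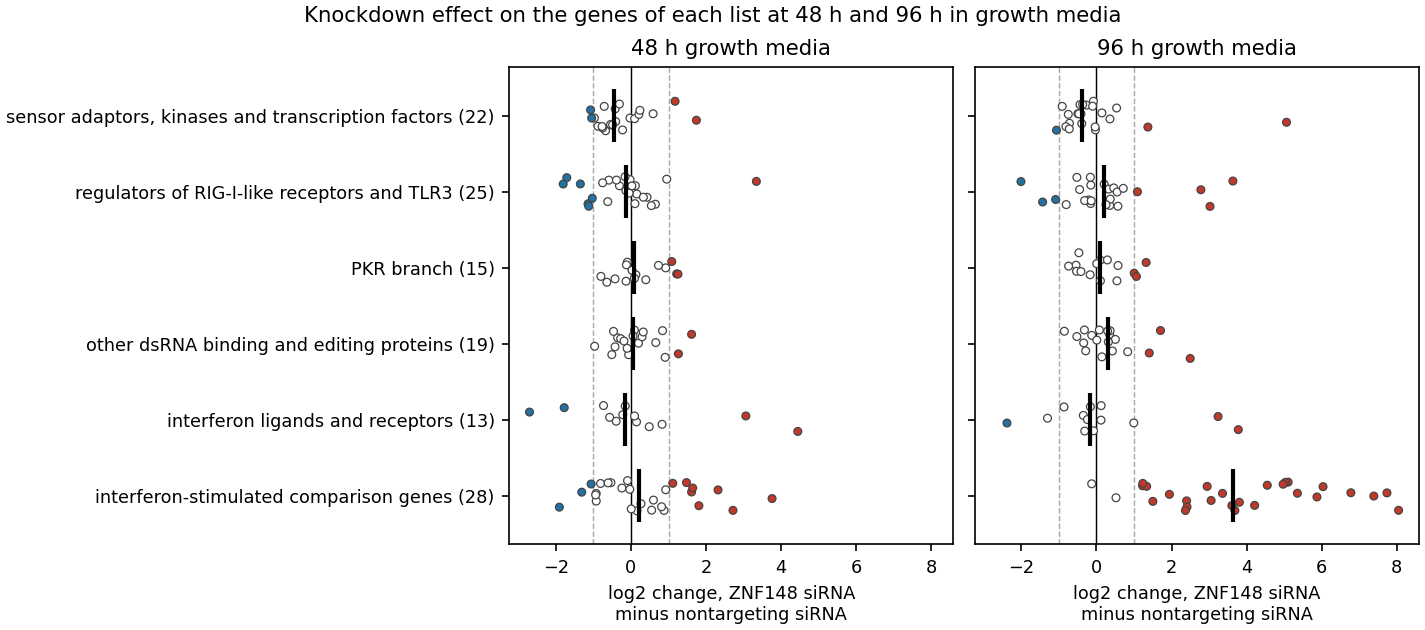
Log2 change (x axis, ZNF148 siRNA minus nontargeting siRNA) of each tested gene of 6 lists (rows, number of tested genes in brackets) at 48 h and 96 h in growth media. Red points were called higher, blue lower and white neither, thick bars are medians and dashed lines mark 2-fold. The median of the interferon-stimulated genes is 0.21 at 48 h and 3.65 at 96 h, while the medians of the other 5 lists lie between -0.46 and 0.30.

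Of 25 regulators of RIG-I-like receptors and TLR3, 4 were higher and 3 lower at 96 h in growth media, with 3 and 3 at 96 h in differentiation media. The counts were 1 and 1 at 24 h, 1 and 6 at 48 h in growth media (also without the array that stood apart) and 2 and 8 at 48 h in differentiation media. The helicases DDX60 and DDX60L rose by 2.78 and 3.02 at 96 h in growth media. RNF125, a ubiquitin ligase that marks RIG-I for degradation, rose by 3.63 at that time. Its controls at 48 h in growth media read 6.18 on the array that stood apart, and 3.29 and 3.88, not well above background, on the other two. The change was 3.34 with all arrays, and without that array the ZNF148 siRNA arrays were at least 10.697-fold higher. TRIM4, a ubiquitin ligase that activates RIG-I, fell by 2.01 at 96 h in growth media and by 3.13 at 48 h in differentiation media on its leading probe, while its second probe gave -0.75 and -0.85.

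AKAP7, a phosphodiesterase family member that can degrade oligoadenylates, was higher by 1.44 at 48 h in growth media and by 1.29 in differentiation media. PDE12, with the same activity, changed by -0.68 at 96 h in growth media. CNP, a further phosphodiesterase, fell by 1.02 at 48 h in differentiation media on its leading probe, and its second probe fell by 3.20. Of 15 genes of the PKR branch, 3 were higher and none lower at 96 h in growth media, with 5 lower at an unadjusted p under 0.05 in limma. The counts higher and lower were 0 and 0 at 24 h, 3 and 0 at 48 h in growth media (4 and 0 without the array that stood apart), 4 and 2 at 48 h and 1 and 0 at 96 h in differentiation media. At an unadjusted p under 0.05, limma gave 7 higher and 2 lower at 24 h, 3 lower at 48 h in growth media and 4 lower at 96 h in differentiation media. DDIT3, a stress transcription factor downstream of eIF2α phosphorylation, was higher by 1.25 at 48 h and 1.01 at 96 h in growth media. PPP1R15B, a subunit of the phosphatase that reverses that phosphorylation, was higher by 1.09 and 1.06, and EIF2B5, a subunit of the factor that recharges eIF2, by 1.32 at 96 h. EIF2S2, the β subunit of eIF2, was higher by 1.27 at 48 h in differentiation media, while its second probe gave 0.84, which was not called.

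Of 19 other proteins that bind or edit double-stranded RNA, 3 were higher and none lower at 96 h in growth media (6 lower at an unadjusted p under 0.05 in limma). The counts were 0 and 0 at 24 h (7 and 4 unadjusted), 2 and 0 at 48 h in growth media (5 lower unadjusted, and 3 and 1 called without the array that stood apart), 2 and 2 at 48 h and 1 and 2 at 96 h in differentiation media. ADAR, the editing enzyme that keeps cellular duplexes from the sensors, read 11.58, 11.74 and 11.65 at 48 h in differentiation media against 13.54, 13.28 and 13.26. It fell by 1.71 there without overlap. The change was -0.97 at 48 h in growth media, or -1.05 and past 2-fold without the array that stood apart, and at 96 h it was 0.35. SAMD9, an antiviral protein, rose by 2.50 and 2.84 at 96 h in growth and differentiation media. DGCR8, of the microRNA processing complex, was higher by 1.62 at 48 h in differentiation media. LRRFIP1, an RNA-binding protein, was higher by 1.71 at 96 h in growth media on its leading probe, while its other 4 probes gave between -0.50 and 0.44.

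Among interferon ligands and receptors, 2 of 13 genes were higher and 1 lower at 96 h in growth media, as against 3 and 2 in differentiation media. The counts were 0 and 1 at 24 h (2 and 3 at an unadjusted p under 0.05 in limma) and 2 and 2 at 48 h in either medium, in growth media also without the array that stood apart. IFNB1, which codes for interferon-β, was dim. It was well above background on 3 of 3 ZNF148 siRNA arrays at 96 h in growth media (4.80, 5.66 and 5.53) and on 1 of 3 at 48 h in differentiation media, and on no other array. Against the lowest signals that were well above background in the controls, it was at least 2.33-fold higher (limma, adjusted p = 1.46e-05). At 96 h in differentiation media, where 7 of the 9 sensor and OAS genes were called higher, IFNB1 read 4.27, 4.10 and 3.91, not well above background on any of the 3 arrays, so its fitted difference, which is among the 3 genes counted as higher there, has no fold. IFNAR1, a chain of the type I interferon receptor, was lower in all 5 comparisons. Its values at 24 h were 8.03, 8.20 and 8.05 against 9.82, 9.77 and 9.75, a change of -1.69 (adjusted p = 8.17e-10). Its later changes were -2.70 and -2.38 at 48 h and 96 h in growth media and -3.38 and -2.54 in differentiation media. In the controls at 96 h in growth media IFNLR1, a chain of the interferon-λ receptor, was below background, and the ZNF148 siRNA arrays were at least 3.38-fold above that bound, but its other 2 probes gave 0.33 and -0.49. Its largest change was at 48 h in differentiation media, where it was at least 28.8-fold higher, a second probe was also called higher (2.96, limma, adjusted p = 1.91e-06) and the third gave 0.73. At 96 h in differentiation media it was at least 5.07-fold higher, with 0.47 and 0.84 on the other 2 probes. Without the array that stood apart it was at least 10.1-fold higher at 48 h in growth media, and with all arrays the other 2 probes gave 0.94 and 0.33. IFNA2 was well above background on 1 of 3 ZNF148 siRNA arrays at 48 h in growth media and on 2 of 3 control arrays at 96 h in differentiation media, and on no other array.

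**Figure D4:**
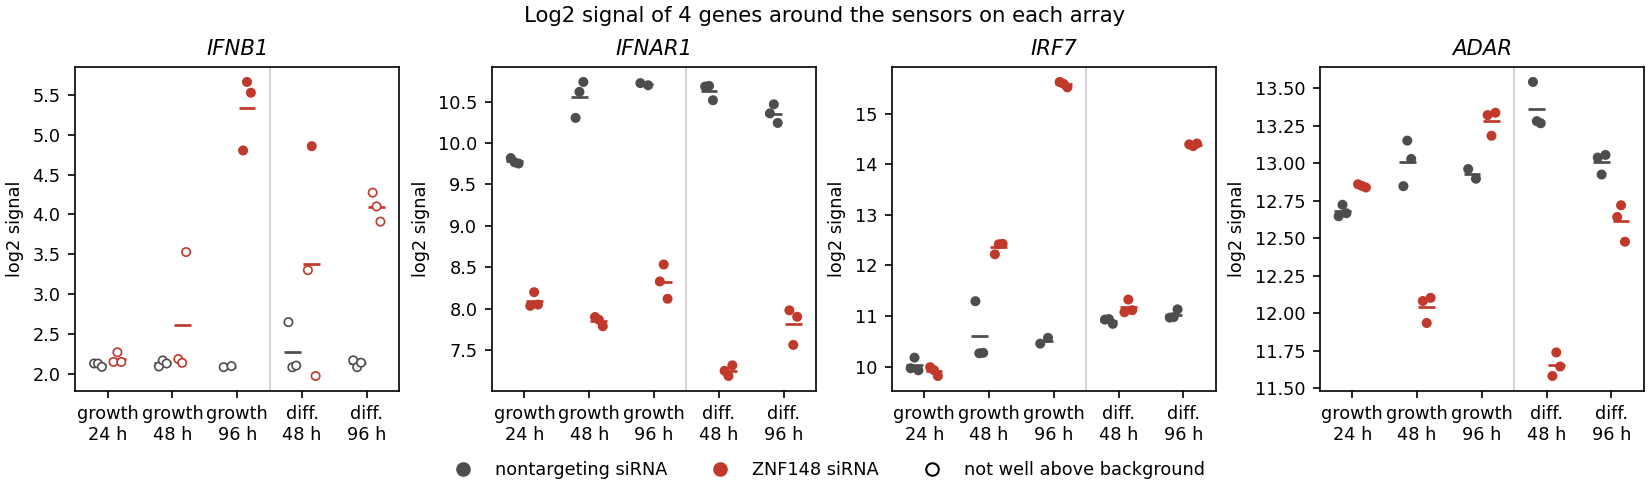
Log2 signal (y axis) of IFNB1, IFNAR1, IRF7 and ADAR on each of the 29 arrays by medium and hours (x axis; diff., differentiation media). Grey points are nontargeting siRNA arrays, red points ZNF148 siRNA arrays, short lines group means and hollow points values not well above background. IFNAR1 is lower with ZNF148 siRNA throughout, IRF7 rises from 48 h in growth media, and ADAR is lower with ZNF148 siRNA at 48 h in both media.

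Most interferon-stimulated genes outside the 9 were higher at 96 h in both media. Of 28 tested, 26 were higher and none lower at 96 h in growth media, against 12.3% and 12.4% of all genes, with 0 lower also at an unadjusted p under 0.05 in limma, and the median log2 change was 3.65. At 96 h in differentiation media 22 were higher and 1 lower (median 2.33). At 24 h 1 was higher and 3 lower (median -0.26), at 48 h in growth media 8 and 3 (9 and 6 without the array that stood apart), and at 48 h in differentiation media 4 and 7. MX1, an antiviral GTPase, read 15.64, 15.50 and 15.49 at 96 h in growth media against 8.09 and 8.22, a change of 7.39. MX2, its relative, rose by 6.78 and BST2, which tethers virions, by 8.05. RSAD2, the antiviral enzyme viperin, was below background on both control arrays there, and the difference was at least 71.3-fold. BST2 was also higher at 48 h in growth media, by 3.76 with all arrays. Its controls there read 6.19 on the array that stood apart, and 3.099 and 3.012, not well above background, on the other two, and without that array the difference was at least 11.2-fold.

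Markers of other cell states moved with the groups. All 5 muscle differentiation markers with a probe (MYOG, CKM, MYH3, MYH8 and TNNC2) were higher with ZNF148 siRNA at 48 h and 96 h in growth media and at 48 h in differentiation media, and 2 of 5 at 96 h in differentiation media. None was called at 24 h. The log2 of their summed signal was 19.61 to 19.68 with ZNF148 siRNA against 9.68 to 18.56 in controls at 48 h in growth media. It was 19.75 to 19.79 against 12.58 to 12.68 at 96 h. On the control array with the sum of 18.56, TLR3 read 8.01 against 8.49 and 8.62 on the other two arrays of its group, DHX58 9.86 against 10.16 and 10.24, and EIF2AK2 11.97 against 12.17 and 12.22. OAS2 read 8.32 against 8.48 and 8.63, OAS3 7.42 against 7.53 and 7.79, and RIGI 8.70 against 8.74 and 8.76, so the leading probes of these 6 genes were lowest on that array. The other OAS2 probes were highest there, at 5.77 against 5.65 and 5.23 and at 5.91 against 5.87 and 5.16. The second RIGI probe was not lowest (8.57 against 8.62 and 8.55), whereas that of EIF2AK2 was (8.17 against 8.29 and 8.53). The share of all genes that were lowest on that array was not counted. IFIH1 read 9.07 against 8.97 and 9.20, OASL 7.93 against 7.86 and 7.97, and OAS1 5.60 against 5.60 and 5.13. The 5 myoblast markers were all above background, and the log2 of their summed signal was 16.47 to 19.20 over all arrays. Of these markers 1, 4, 3, 2 and 2 were higher in the 5 comparisons in the order used above. At 48 h and at 96 h in growth media 1 was lower.

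Of 5 immune markers, CD14 was well above background on 29 of 29 arrays, PTPRC on 26, CD3E on 11 and ITGAM on 7. The log2 of their summed signal at 96 h in growth media was 8.02 to 8.29 with ZNF148 siRNA and 11.73 to 11.82 in controls. CD14 was lower by 4.28 in that comparison, and PTPRC, ITGAM and CD3E changed by 0.30, 0.82 and -1.27, not called. In differentiation media at 96 h the sums were 7.52 to 7.81 and 7.89 to 7.94. There CD14 was lower by 1.24, and PTPRC differed by 0.76 (limma, adjusted p = 0.000932), ITGAM by 0.22 and CD3E by 0.36, under 2-fold. The summed endothelial markers were 7.56 to 7.77 against 9.12 to 9.17 at 96 h in growth media, with 2 of 4 lower, and 1 of 4 higher and 2 lower at 96 h in differentiation media. Of 4 fibroblast markers 1 was called, lower at 48 h in differentiation media, and the sums at 96 h in growth media were 11.80 to 11.92 and 11.69 to 11.82. The adipocyte markers PLIN1, FABP4 and ADIPOQ were well above background on 0, 1 and 4 of 29 arrays. The part of the muscle, immune and endothelial markers in the sensors' levels was not tested.

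Over the 29 arrays the 36 pairs among the 9 genes had correlations between 0.21 and 0.97, with a median of 0.83. These describe arrays that share groups and slides. Of 12390 other genes above background on every array, those most like the mean of the 9 included SP110 (r = 0.978), DDX60L (0.972), EPSTI1 (0.971) and TDRD7 (0.965). For single genes the closest were HERC5 for RIGI (0.982), IFI6 for IFIH1 (0.977) and for OAS1 (0.991), NMI for DHX58 (0.939), ZNFX1 for TLR3 (0.952), TDRD7 for EIF2AK2 (0.969), IGFBP2 for OAS3 (0.965) and PNPT1 for OASL (0.953). SP110 averaged 12.75 with ZNF148 siRNA and 10.65 with nontargeting siRNA at 96 h in growth media. ZNFX1 averaged 7.59 against 9.38 at 48 h in differentiation media, lower as TLR3 was.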

How the data were processed

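The deposited intensities are background-subtracted signals on a linear scale, extracted with Agilent Feature Extraction 10.7.3.1 and unscaled between arrays. The authors also deposited a log2 matrix, quantile-normalized, which was used as an alternative. Control and outlier spots were left out, spots of a probe averaged on the log2 scale and arrays quantile-normalized (R 4.3.3, limma 3.58.1). Probes that 2 or more arrays measured well above background (38839) entered the limma fit (1 fit, 10 group means, two-sided), with Benjamini-Hochberg adjustment over all of them. Each gene is represented by the probe with the highest mean log2 signal among those tested. Where a group was below background, its arrays were raised to their lowest signal well above background and the fold is a bound. The number of arrays limits the precision. Array headers name hg19 (14) or no build (15), so probe positions are not given. The members and lists (adaptors, regulators, phosphodiesterases acting on oligoadenylates, PKR branch, other RNA-binding proteins, ligands and receptors, interferon-stimulated genes and cell markers) were chosen with earlier results of these data known. Of each list at most 4 genes called in a comparison are named, those with the largest changes, and the genes most like the members. Some genes of these lists are not reported here. On simulated data with 38157 probes for 96 h in growth media, 71% of changes of 1.5 and 86% of changes of 3 (log2) were recovered, with 2 false calls. The simulated noise was independent and had no slide effect, and only 100 probes of each size were changed. In the real comparison 24.7% of genes were called, so these rates need not hold there.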

Additional observations from a re-analysis of the deposited data

Results flagged for a closer look

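Of 45 tested differences between knockdown effects (9 genes, 5 contrasts), 30 passed the threshold in limma. Each value is the difference of 2 log2 changes.

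In growth media the effect at 96 h exceeded that at 24 h by 2.69 for RIGI, 4.76 for IFIH1, 3.53 for DHX58 and 1.72 for TLR3. The excess for OAS1 was 6.49 as fitted, but OAS1 was well above background on 0 of 3 ZNF148 siRNA arrays and 1 of 3 control arrays at 24 h, so its size has no settled base. The excess was 1.75 for EIF2AK2, 4.14 for OAS2, 3.28 for OAS3 and 5.93 for OASL. Between 96 h and 48 h it was 2.35 for RIGI, 3.60 for IFIH1, 2.85 for DHX58 and 2.68 for TLR3. For EIF2AK2 it was 1.94, for OAS1 5.29, for OAS2 4.08, for OAS3 4.06 and for OASL 4.13. All 4 receptors were called in both of these contrasts, which share the effect at 96 h. Between 48 h and 24 h the excess was 1.16 for IFIH1, 1.20 for OAS1 (dim at 24 h) and 1.79 for OASL. No receptor other than IFIH1 was called in that contrast, where the excess is again listed only for called genes. With normexp background correction it was 0.92 for IFIH1 and 0.40 for OAS1, neither called. At 24 h the arrays were on a slide of their own.

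Between media at 96 h the effect was lower in differentiation media by -1.59 for RIGI, -1.17 for IFIH1, -1.34 for DHX58 and -1.80 for TLR3. Of the OAS2 probes, which disagreed in direction, 1 that does not lead was also called lower (-1.13). At 48 h it was lower by -1.33 for DHX58 and -1.07 for TLR3, and higher by 1.13 for OAS2, 1.23 for OAS3 and 1.73 for OASL. Of these 48 h differences only those of DHX58 and OASL kept their call with normexp background correction. Hours in the 2 media may not count from the same moment.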

How the results depend on the processing

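The counts of members called at 96 h in growth media (9) and in differentiation media (7), over the 4 time comparisons (18) and over the 5 differences between effects (30) stayed within 1.5 times under every alternative run. Normexp background correction gave 1 member called at 24 h in place of 3 and 6 over the 4 media comparisons in place of 10. At 48 h in growth media, 2 in place of 1 were called with array weights and in the fit of 28 arrays. Without the fold threshold 5 were called at 24 h, 7 at 48 h in growth media, 7 at 48 h in differentiation media (3 with it) and 23 over the media comparisons. By that rule 15.7% of all genes were higher and 16.8% lower at 24 h. The shares were 26.8% and 31% at 48 h in growth media and 30.2% and 34.6% at 48 h in differentiation media. In the media comparisons 7.48% to 25.3% were higher and 11.5% to 24.4% lower. Averaging the probes of a gene turned the difference between media at 48 h for OAS2 to -0.0822. Leaving out 1 array at a time gave 2 to 3 at 24 h, 1 to 2 at 48 h and 9 to 9 at 96 h in growth media, 3 to 4 at 48 h and 7 to 7 at 96 h in differentiation media, 10 to 11 over the media comparisons, 18 to 18 over the time comparisons and 29 to 31 over the differences. The counts of the gene lists at 48 h in growth media without the control array that stood apart were added after seeing the data. The cause of these shifts was not tested.

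Replicate numbers did not pair the arrays: of 14 pairs of same-numbered arrays, 1 had a correlation of deviations over 0.1 (range -0.15 to 0.12). With the replicate block the counts were 3, 1, 9, 3 and 7 for the 5 knockdown comparisons in the order of the report, and 10, 18 and 30 for media, time and differences, so it changed no count. Of the values of single members in the knockdown comparisons under alternatives that kept all or 28 arrays, 669 kept their side of the threshold, 2 passed it anew and 4 lost it. A change of sign was counted only where a value was called. Values not called could change sign, as for OAS2 at 48 h in differentiation media (-0.17 to 0.40 over all alternatives). Scaling to the 75th percentile shifted the median of all probes by 0.02 to 0.11 between groups. Dim signals limit OAS1 at 24 h, IFNB1 and the second OAS3 probe.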
